A study of Mus musculus with 60 samples.

Results

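The profile of the mouse lymph node was described from 6 Affymetrix arrays, 1 per animal, of 60 arrays in 8 tissues. All arrays labelled lymph node were used, and their mean was set against the mean of the means of the other 7 tissues. The series screened glycan-related genes in mice lacking St6galnac2 or both B4galnt1 and B4galnt2, beside wild-type animals. The 6 lymph nodes came from the St6galnac2 line, 3 from wild-type animals (9362, 9099 and 9094) and 3 from St6galnac2 knockout animals (9093, 9361 and 9100). Each genotype held 2 males and 1 female. Which node was taken and the age of the animals are not given in the sources used here.

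The other tissues held 50 arrays after 4 arrays were dropped on a gene of known tissue pattern, namely 1 brain array with Fut9 under 6, 1 intestine array with Fut9 above 6 and 2 arrays labelled thymus with Prol1 above 8. Brain kept 9 arrays and intestine 7, each from St6galnac2 knockout animals, their wild types and 3 C57 wild types. The C57 arrays are labelled small intestine and those of the St6galnac2 line intestine, and the intestine mean pools both. Thyroid kept 6 arrays, from the same 6 animals as the lymph nodes. Kidney (9 arrays), mammary gland (7), testes (6) and thymus (6) came from the line without B4galnt1 and B4galnt2, written here as double knockout, and its wild types. Line and tissue therefore cannot be told apart in the comparisons with those 4 tissues. Of the 6 arrays labelled thymus, 5 were double knockout and 1 was wild type. The mammary gland arrays came from males as well as females. All values are log2 signals, a difference of 1 is a factor of 2, and a level of one gene is never set against that of another.

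Lymph nodes are the organs in which circulating lymphocytes meet antigen carried in by lymph. Lymphocytes leave the blood across high endothelial venules, whose mucin-like proteins, such as Glycam1, carry the sulfated, fucosylated and sialylated O-glycans that selectins bind. Chemokines made by stromal cells then sort B cells into follicles (Cxcl13 and its receptor Cxcr5) and T cells into the paracortex (Ccl21 and its receptor Ccr7). Macrophages and dendritic cells of the sinuses carry lectins that bind glycans on pathogens and on other cells.

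**Figure D1:**
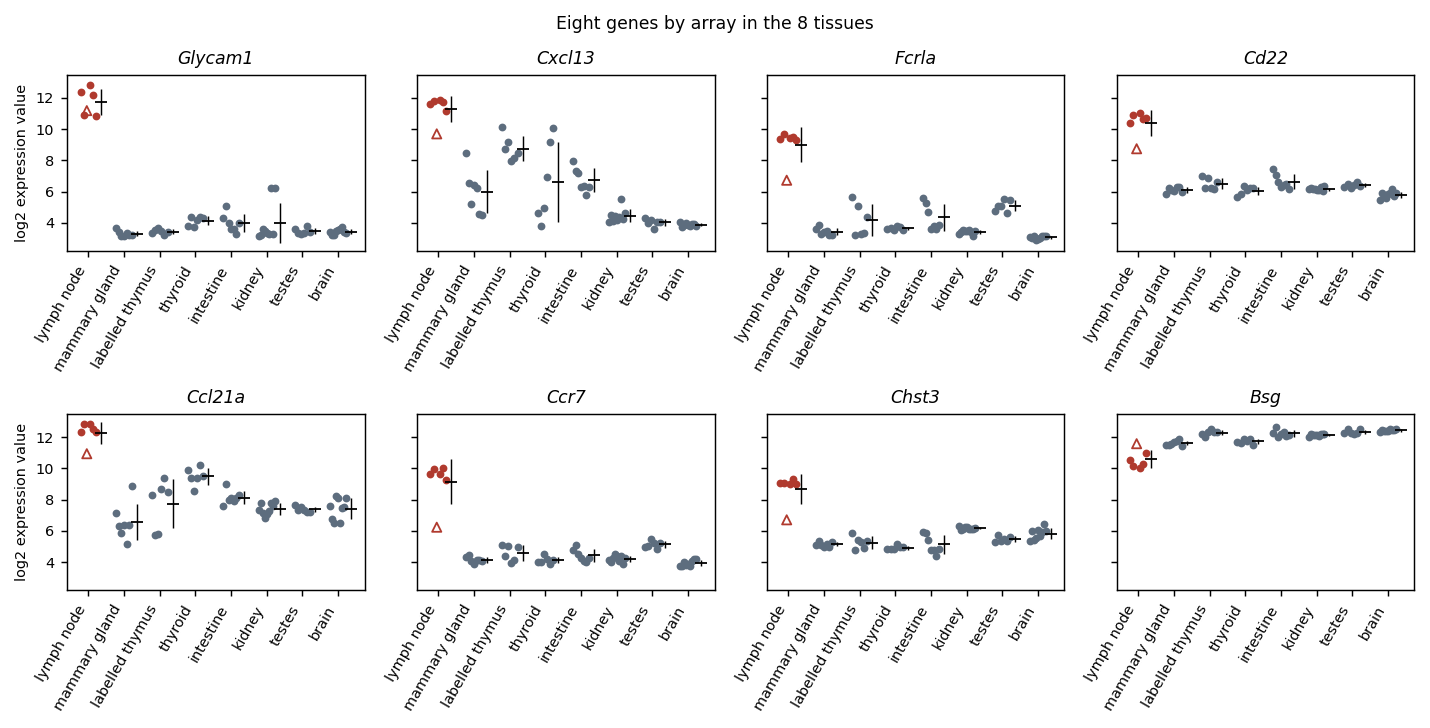
Log2 signal of 8 genes in every array (y axis) by tissue (x axis); each point is 1 array, red marks are lymph node, the cross bar beside them is the mean with its SD, and the open triangle is the array of wild-type animal 9094. Glycam1 in the 6 lymph nodes lay between 10.85 and 12.83, and no array of another tissue passed 6.21.

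The 4 genes that mark the tissue were high in all 6 arrays. Glycam1, the mucin-like selectin ligand of high endothelial venules, read 12.36, 10.92 and 11.18 in wild-type animals 9362, 9099 and 9094 and 12.83, 12.19 and 10.85 in knockout animals 9093, 9361 and 9100. The highest array of any other tissue, a kidney, read 6.21, so the lymph nodes stood clear of all others. Cxcl13, the chemokine of B cell follicles, read 11.61, 11.78 and 9.69 in the wild types and 11.87, 11.71 and 11.15 in the knockouts. Here the groups overlapped, since 1 array labelled thymus reached 10.11 and 1 thyroid array 10.04, both above the lymph node of animal 9094. Fcrla, an Fc receptor-like protein of B cells, read 9.38, 9.66 and 6.73 in the wild types and 9.42, 9.50 and 9.30 in the knockouts, against at most 5.68 elsewhere. Cd22, the B cell receptor inhibitor that binds alpha2,6-linked sialic acid, read 10.37, 10.91 and 8.74 in the wild types and 11.02, 10.67 and 10.70 in the knockouts, against at most 7.47 elsewhere. These genes define the lymph node profile, so their levels do not test the tissue label. Cd3e, Cd4, Cd8a, Marco, Lyve1, Pdpn, Prox1 and Flt4 have no named probe set here, so T cells, sinus macrophages and lymphatic vessels could not be read from these genes.

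The 250 bases upstream of the RefSeq transcription start of these 4 genes (GRCm38.p6) are shown because the genes were high together; each is written 5′ to 3′ on the gene's own strand. Capitals mark the motifs searched on both strands: an octamer (ATGCAAAT), an ETS-type site (GAGGAAGT), a kappaB-type site (GGGA, any 3 bases, then CCC) and a TATA box (TATAAA).
Glycam1 (chr15:103565082-103565331, minus strand): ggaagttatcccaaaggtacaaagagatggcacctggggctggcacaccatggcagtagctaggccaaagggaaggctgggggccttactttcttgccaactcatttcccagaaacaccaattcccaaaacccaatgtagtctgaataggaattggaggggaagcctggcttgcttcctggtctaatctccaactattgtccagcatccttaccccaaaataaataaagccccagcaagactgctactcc
Cxcl13 (chr5:95956689-95956938, plus strand): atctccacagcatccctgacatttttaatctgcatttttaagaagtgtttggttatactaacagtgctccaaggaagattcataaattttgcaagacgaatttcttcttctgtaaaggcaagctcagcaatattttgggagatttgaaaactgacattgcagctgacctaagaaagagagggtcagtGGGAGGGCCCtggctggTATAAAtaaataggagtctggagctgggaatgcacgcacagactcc
Fcrla (chr1:170927584-170927833, minus strand): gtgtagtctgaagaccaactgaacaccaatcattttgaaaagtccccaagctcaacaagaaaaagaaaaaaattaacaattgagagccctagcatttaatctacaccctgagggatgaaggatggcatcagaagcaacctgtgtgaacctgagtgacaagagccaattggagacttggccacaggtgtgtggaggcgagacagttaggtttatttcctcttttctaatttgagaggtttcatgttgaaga
Cd22 (chr7:30879029-30879278, minus strand): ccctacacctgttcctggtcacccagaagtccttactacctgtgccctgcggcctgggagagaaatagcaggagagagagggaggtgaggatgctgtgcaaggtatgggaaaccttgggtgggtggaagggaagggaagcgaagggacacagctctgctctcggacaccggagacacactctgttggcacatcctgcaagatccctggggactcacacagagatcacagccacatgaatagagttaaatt
The Cxcl13 window held a kappaB-type match whose first base lies at -63 and a TATA match at -46 from the start. The other 3 windows held none of these letters. Over the first listed start of 27025 genes, the same window held the octamer in 1.61%, the ETS-type site in 2.44%, the kappaB-type site in 4.65% and the TATA letters in 13%. Over the 708 measured genes with a window the shares were 1.13%, 2.68%, 7.2% and 12.4%. Of the 34 genes with a listed window that were called above each other tissue, 1 held the octamer (Ccr6), 3 the ETS-type site (Cd72, Cxcr3 and Havcr2), 2 the kappaB-type site (Cxcl13 and Notch2) and 5 the TATA letters (Ccl12, Cxcl13, Cxcr4, Fcer2a and Klra9). A match is a description of the letters and was not tested as a site.

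Before the values were averaged the 6 arrays were set against each other, and 2 of them stood apart. Each array's deviations from the mean of the tissues were correlated, across 909 genes that are not independent replicates, with those of its own tissue from the remaining arrays. Animals 9099, 9093, 9361 and 9100 gave 0.952, 0.962, 0.961 and 0.954, and animal 9362 gave 0.866. The wild-type female 9094 gave 0.516 with lymph node, 0.488 with mammary gland and 0.345 with thyroid. In 9094 the 15 measured genes of connective tissue and fat had a median 1.55 above the mean of the other 5 lymph nodes. Of the 15, 12 lay above the highest of the 5 and 2 below the lowest. Over all 909 genes the median was 0.05, with 313 above the highest of the 5 and 257 below the lowest. The summed log2 signal of the 15 genes was 130.4 in 9094 and 106.3 to 114.5 in the other 5. Lumican (Lum), a collagen-binding proteoglycan, read 9.32 there, against 4.88 to 6.42 in the other 5.

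Array 9094 also read low for lymphocyte genes, the T cell list with a median 2.39 and the B cell list 2.19 below the other 5. In bulk tissue, fewer cells of a type and less RNA per cell cannot be told apart. The wild-type male 9362 stood apart in other genes. Prol1, a secreted proline-rich protein of glands, read 11.08 in it and 2.41 to 5.12 in the other 5, which is above the limit of 8 that dropped arrays labelled thymus. B3gnt6, the core 3 O-glycan synthase, read 9.43 in 9362 and at most 4.49 in the other 5. Gne, the first enzyme of sialic acid synthesis, read 9.69 against at most 7.06, and St3gal4, a sialyltransferase, 9.08 against at most 6.52. No array was left out of the main values, and values without both arrays, an alternative chosen after seeing the data, are given where they change a result.

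**Figure D2:**
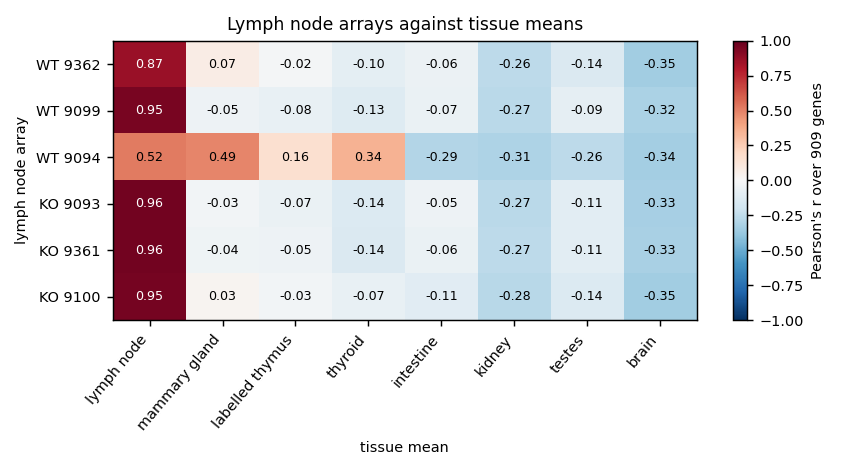
Pearson correlation (colour and printed value, no unit) of each lymph node array (y axis) with the mean deviation of each tissue over 909 genes (x axis), the array itself left out of its own tissue's mean. Array 9094 gives 0.516 with lymph node and 0.488 with mammary gland, and the other 5 give 0.866 to 0.962 with lymph node.

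The arrays labelled thymus were mixed for the 5 measured genes of the thymus list and low for T cell genes. Ccl25, the chemokine of thymic epithelium, averaged 4.59 in them and 11.43 in intestine. Ccr9, its receptor on thymocytes, averaged 3.86 in them and 7.16 in lymph node, and the sialyltransferase St8sia6 5.13 and 7.15. The other members, Angpt1 and Igf2, are also on the endothelium and insulin-like growth factor lists. They were far higher in labelled thymus, where the endothelial growth factor Angpt1 averaged 10.32 and Igf2 11.73, against 4.14 and 6.97 in lymph node. The list was written with earlier results of these data known, so how its members fell does not test the label. The T cell genes Cd2, Il7r and Cd69 averaged 5.46, 3.73 and 3.97 there, against 9.97, 7.79 and 7.54 in lymph node. Rag1 and Dntt have no named probe set here. These arrays are called labelled thymus throughout.

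Against the mean of the other tissues, 103 of 909 genes (11.3%) were higher in lymph node and 81 (8.91%) lower, at an adjusted p under 0.05 (limma, Benjamini-Hochberg) and a difference of at least 1. The genes higher in lymph node included lymphocyte surface receptors, chemokines and their receptors, and those lower included growth factors, their receptors and matrix genes. Of the 103, 52 were higher by 2 or more and 18 by 4 or more. Of the 81, 7 were lower by 2 or more. The median difference over all 909 genes was -0.13, so the typical gene was slightly below the other tissues. Centring each array on its median moved that value to -0.25 and a further quantile normalization to -0.21, and differences are to be read against it.

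Of the 103 genes, 83 had their highest tissue mean in lymph node. In the remaining 20 another tissue was higher, mammary gland for 11, intestine for 5, kidney for 2, and testes and labelled thymus for 1 each. The tissue that came next, or stood above, was mammary gland for 34 of the 103, intestine for 26 and labelled thymus for 16. In 51 genes (5.61%) lymph node was called higher than each of the 7 tissues taken singly. In 25 genes (2.75%) the lowest lymph node array lay above every array of every other tissue. Of these, 24 were among the 51, and the other was Il5ra, the interleukin-5 receptor chain, whose difference was 0.63.

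In lymph node, thyroid, brain and intestine of the St6galnac2 line alone, with the animal as a replicate block, 115 genes (12.7%) were higher and 118 (13%) lower over 22 arrays. All 103 genes kept their direction in that paired fit and 97 their call, and of the 81 lower genes 79 and 66 did. Without both arrays that stood apart, 100 of the 103 and 80 of the 81 were still called. The difference was larger in 89 of the 103 and in 76 of the 81.

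**Figure D3:**
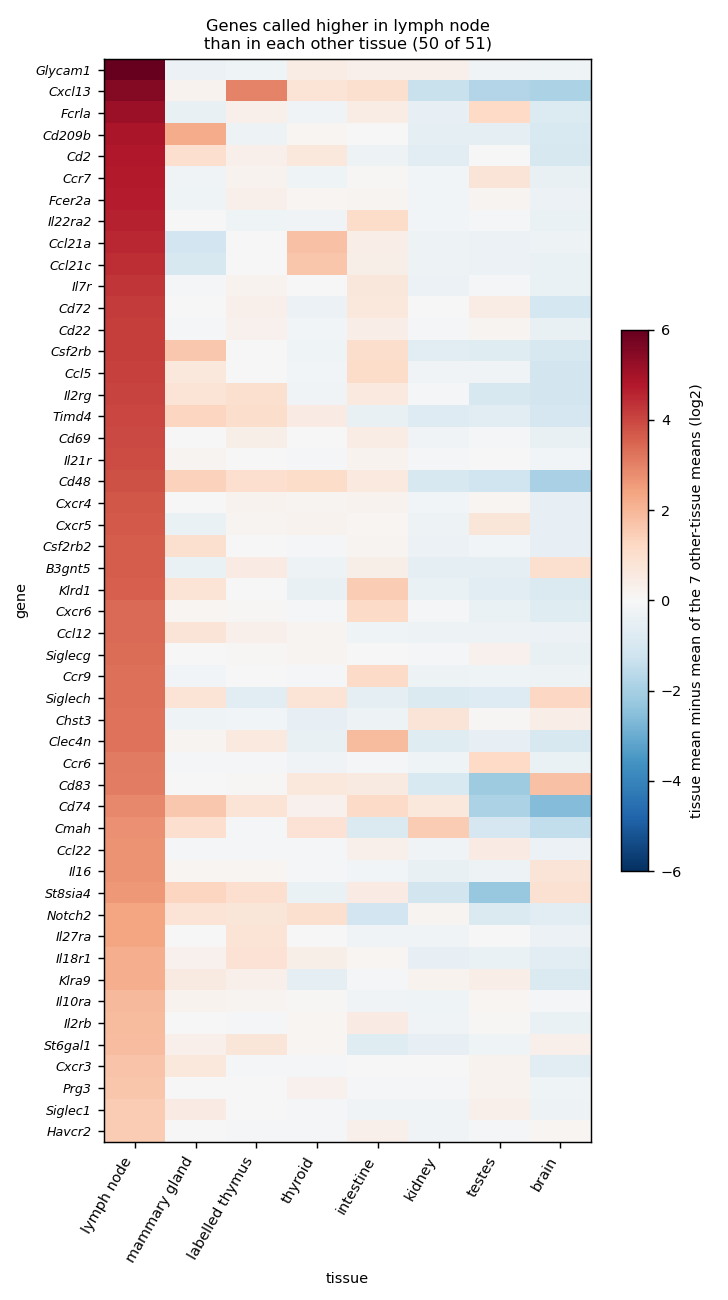
Of the 51 genes called higher in lymph node than in each of the other 7 tissues, 50 are shown (y axis, by falling difference) across the 8 tissues (x axis); the colour is the tissue mean minus the mean of the 7 other-tissue means, on the log2 scale, and the scale ends at 6. Glycam1 leads with a difference of 8.03, and Cxcl13 in labelled thymus is the deepest red outside the lymph node column.

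Among selectins, their ligands and endothelial adhesion molecules, 6 of 14 measured genes were higher and 2 lower, with a median difference of 0.33 against -0.13 over all genes. Here and in the lists that follow, counts are to be read against the 11.3% higher and 8.91% lower of all genes. Glycam1 averaged 11.72 ± 0.84 (SD, n = 6) in lymph node and 3.69 over the other tissues, a difference of 8.03 ± 0.27 (SE) or 262-fold, with an adjusted p of 3.3e-31 by limma. This SE, like those of the other tissue differences, rests on a spread pooled over all tissues and not on the lymph nodes alone. The ligand was clear of every other tissue in all 6 arrays. Glycam1 is a marker that defines the profile, so its p-value and its place in this count do not test the tissue label. The same holds for Cxcl13 among the homing chemokines and Cd22 among the siglecs below.

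The endothelial adhesion molecules were higher as well, but not clear of labelled thymus. Icam1, a ligand of leukocyte integrins, read 6.92, 9.49 and 9.76 at the lowest, median and highest, a difference of 2.67 ± 0.25. Icam2 differed by 2.20 ± 0.16 and Vcam1, the ligand of alpha4 integrins, by 2.08 ± 0.22. Labelled thymus averaged 9.20 for Icam2, level with the 9.20 of lymph node, and 10.44 for the endothelial protein Pecam1, above its 9.52. Pecam1 was still 1.75 ± 0.15 above the mean of the other tissues. Cd44, the hyaluronan receptor, was higher by 1.78 ± 0.21, with mammary gland next at 8.28 against 8.33.

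The vascular selectins were not among the genes that differed by 1 or more. Selp, P-selectin, read 4.11 to 4.68 in lymph node and differed by -0.13 ± 0.09, and Sele, E-selectin, read 2.76 to 3.05. Their common ligand Selplg differed by 0.12 ± 0.08. Madcam1, the addressin of mucosal vessels, read 6.14, 6.40 and 7.34, a difference of 0.54 ± 0.12 with an adjusted p of 7.9e-05 (limma), under the limit of 1. The sialomucin Podxl2 was lower (-1.38 ± 0.16) and so was Cd34, whose difference lay at the limit, and both were highest in 9094, at 6.40 and 9.67. The Cd34 call was lost at -0.990, -0.778, -0.997 and -0.909 when 9362, 9099, 9093 or 9100 was left out.

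On the list of lymphatic and blood endothelium 1 of 10 genes was higher (Pecam1) and 2 were lower (Cd34 and Angpt1), with a median of -0.24. The share higher was near the 11.3% of all genes, of which 8.91% were lower. Angpt1 read 3.41, 3.71 and 5.81 in lymph node, a difference of -1.74 ± 0.23, with 9094 the highest. The lymphatic growth factors Vegfc and Vegfd differed by 0.02 ± 0.10 and -0.89 ± 0.20 and were not called. Nor was Angpt2, an antagonist of Angpt1 at its receptor, at 0.71 ± 0.20, or the endothelial mucin Emcn at -0.23 ± 0.18, for which labelled thymus averaged 11.25 against 8.10 in lymph node.

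Genes that build selectin ligands were higher in 3 of 19 cases, a share near the 11.3% of all genes, with a median of 0.36. Chst3, which sulfates chondroitin and also sialyl-lactosamine, read 6.71, 9.04 and 9.30 at the lowest, median and highest, 3.26 ± 0.18 above the other tissues (9.61-fold). Its 6 arrays all lay above the 6.45 of the highest other array. Fut7, the fucosyltransferase that completes sialyl Lewis x, read 6.33, 7.01 and 7.69, a difference of 1.21 ± 0.12 (adjusted p of 4.5e-13, limma). Animal 9094 lay within the range of testes, which came next at 6.36. Chst4, the GlcNAc-6-sulfotransferase of high endothelial cells, read 5.05, 6.74 and 7.61, a difference of 1.13 ± 0.17, and intestine averaged more, 7.46. Both Fut7 and Chst4 fell under 1 when wild-type arrays alone were compared, at 0.83 and 0.84, and Chst4 gave 0.93 without 9362.

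The rest of that pathway did not pass. Chst2, the second sulfotransferase of this step, differed by 0.58 ± 0.18 and Gcnt1, the core 2 branching enzyme, by 0.43 ± 0.26. Within the St6galnac2 line Gcnt1 differed by 1.51 and Chst2 by -0.01. C1galt1, which makes the core 1 O-glycan, differed by -0.41 ± 0.12. The sialyltransferase St3gal4 differed by -0.34 ± 0.20, with 5 lymph nodes between 6.17 and 6.52 and animal 9362 at 9.08.

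Homing chemokines gave 6 higher and 3 lower of 10 measured genes, with a median of 1.67. Cxcl13 was 5.52 ± 0.45 above the other tissues (46.0-fold, adjusted p of 1.3e-15 by limma), with labelled thymus next at 8.76 ± 0.79 (SD, n = 6). Ccl21a, the chemokine of T cell zones and lymphatic vessels, read 10.94, 12.40 and 12.82, a difference of 4.54 ± 0.34. Every lymph node lay above the 10.21 of the highest other array, a thyroid, and thyroid averaged 9.48. Ccl21c read 10.91, 12.49 and 12.88, and since it is a near-identical copy of Ccl21a the pair cannot be taken as separate measurements.

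Ccl22, a dendritic cell chemokine, read 5.44, 7.70 and 8.94, a difference of 2.72 ± 0.20, and the lowest array, 9094, overlapped other tissues. Ccl17, a ligand of the same receptor, was higher by 1.15 ± 0.15, and by 0.91 without 9362, where it was not called. Cxcl12, the ligand of Cxcr4 made by stroma, was higher by 2.19 ± 0.22 with kidney next at 9.49, and a further probe set of the gene gave 1.24. The 3 lower genes are chemokines of epithelia: Ccl25 (-1.86 ± 0.13), Ccl27a (-1.47 ± 0.23) and Cxcl14 (-1.46 ± 0.21). Ccl25 read 3.82 to 4.57 in lymph node and averaged 11.43 in intestine. Of the other 2 probe sets for Ccl27a, 1 gave -1.67 and 1 gave -0.12.

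Of their 9 receptors 6 were higher and none lower, with a median of 3.32. Ccr7, the receptor for Ccl21, read 6.24 at the lowest, 9.65 in the median and 10.01 at the highest lymph node, against at most 5.47 in any other array. Its difference was 4.76 ± 0.23, or 27.1-fold, and 5.36 without both arrays that stood apart. Cxcr5, the Cxcl13 receptor of follicular cells, read 6.37, 8.55 and 8.95 against at most 5.51, a difference of 3.69 ± 0.15. Both receptors were thus clear of all 50 other arrays, as were Cxcr4 (3.71 ± 0.20) and Ccr6 (3.09 ± 0.12), the receptor of Ccl20.

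Cxcr6 was higher by 3.42 ± 0.20 and Ccr9, the receptor of gut-homing lymphocytes, by 3.32 ± 0.21, each with intestine next. For these 2 receptors the groups overlapped, as animal 9094 read 5.69 and 4.70 and single intestine arrays reached 6.18. The receptors that did not pass were Ccr4 (0.59 ± 0.07), Ccr10 (0.37 ± 0.08) and Ackr4 (0.03 ± 0.17), a scavenger of Ccl21. Ccl20 itself, the ligand of Ccr6, differed by 0.05 ± 0.20, and Ccl25, the ligand of Ccr9, was lower. The ligand and receptor were thus both higher for Ccl21 with Ccr7, Cxcl13 with Cxcr5 and Cxcl12 with Cxcr4, and not for the pairs of Ccr6 and Ccr9.

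Among inflammatory chemokines 7 of 20 were higher and 1 lower, with a median of 0.28. Ccl5, made by activated T and natural killer cells, read 9.91, 12.03 and 12.31 against at most 9.79 elsewhere, a difference of 4.08 ± 0.19. Ccl12, a ligand of Ccr2, was higher by 3.42 ± 0.20. Ccl8 was higher by 3.06 ± 0.22, but mammary gland averaged 10.41 against 9.74 in lymph node. Ccl7, Xcl1, Cxcl10 and Cxcl9 were higher by 1.25 to 1.97, of which Cxcl9 fell under the limit at 0.93 without 9362, and Cx3cl1 was lower (-1.74 ± 0.29), brain averaging 10.88.

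The neutrophil chemokines Cxcl1, Cxcl2 and Cxcl5 differed by -0.05 to 0.08. Of 11 receptors for inflammatory chemokines, 2 were higher, against 11.3% of all genes. Cxcr3, the receptor of Cxcl9 and Cxcl10 on T cells, differed by 1.70 ± 0.14, and Ccr2, the monocyte receptor, by 1.18 ± 0.19. Mammary gland averaged 8.36 for Ccr2 against 7.09 in lymph node, and the Ccr2 difference was 0.96 without both arrays that stood apart.

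**Figure D4:**
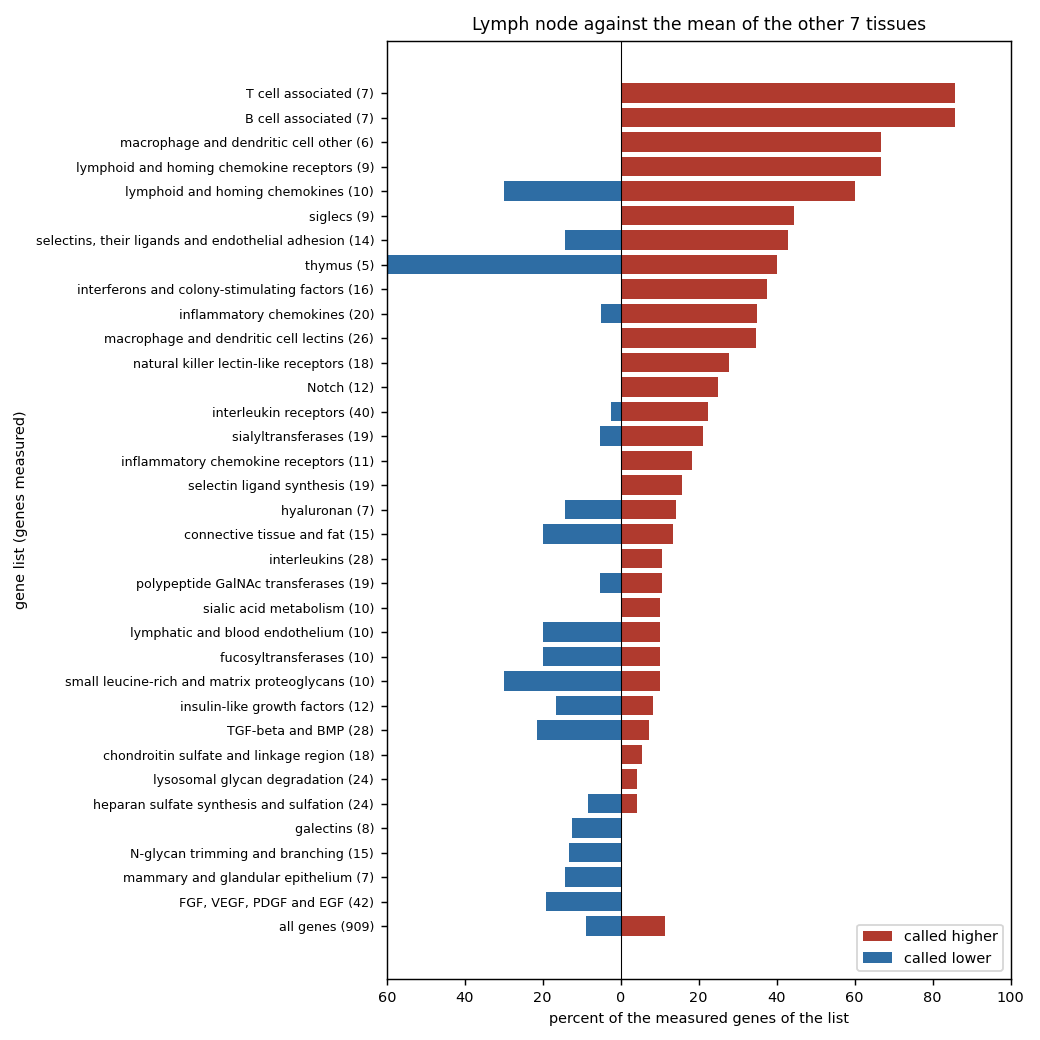
Share of the measured genes of each list with at least 5 of them (y axis, number in brackets) called higher (red, right) or lower (blue, left) in lymph node than the mean of the other tissues, in percent (x axis). The B cell and T cell lists had 6 of 7 genes higher, against 11.3% over all genes, and the list of FGF, VEGF, PDGF and EGF genes had 8 of 42 lower and none higher.

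Of 7 B cell genes measured, 6 were higher than in each of the 7 other tissues, against 5.61% of all genes. The median difference of the list was 4.16. Fcrla differed by 5.11 ± 0.25 (34.6-fold, adjusted p of 1.5e-24 by limma) and Cd22 by 4.16 ± 0.16 (17.9-fold). Fcer2a, the low-affinity IgE receptor CD23, read 6.45, 9.28 and 10.13 against at most 5.33 elsewhere, a difference of 4.72 ± 0.21. Cd72, a lectin-like co-receptor of B cells, read 8.02, 10.25 and 10.43 against at most 7.60, a difference of 4.20 ± 0.20. All 6 lymph nodes were above every other array for these genes, for Cxcr5 and for Siglecg, an inhibitory B cell siglec (3.33 ± 0.15). Over all genes 2.75% were so placed. Fcrlb was the exception on the B cell list, 4.66 to 5.03 in lymph node and a difference of 0.10 ± 0.07. The list holds the markers that named the tissue, so its count is no independent evidence of it.

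Siglecs are lectins that bind sialic acid, and 4 of 9 measured were higher and none lower. Beside Cd22 and Siglecg these were Siglech of plasmacytoid dendritic cells (3.29 ± 0.21) and Siglec1, sialoadhesin of sinus macrophages (1.53 ± 0.11). Siglec1 read 5.99, 6.93 and 7.38, and animal 9094 at 5.99 lay under the 6.17 of the highest mammary gland. Cd33 differed by 0.22 ± 0.07, Siglece by -0.15 ± 0.08 and Siglecf by -0.10 ± 0.10. Mag, the myelin siglec, differed by -0.87 ± 0.10 and averaged 10.30 in brain.

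The enzymes that make sialylated ligands were mixed. St6gal1, which makes the alpha2,6-sialylated N-glycans bound by Cd22, read 8.16, 10.12 and 10.41, a difference of 1.83 ± 0.23 (adjusted p of 5.2e-10, limma). It was called higher than in each tissue, with labelled thymus next at 8.69, and 9094 overlapped other tissues. Cmah, which turns the sialic acid Neu5Ac into Neu5Gc, read 6.86, 8.55 and 8.96, a difference of 2.73 ± 0.16 (6.65-fold), with kidney next at 7.15. The remaining 9 measured genes of sialic acid metabolism did not pass, and the list's median was -0.01. Gne among them rests on 1 array: its difference turned to -0.30 without both arrays that stood apart, as 9362 read 9.69.

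Of 19 sialyltransferases 4 were higher and 1 lower, with a median of -0.34. St8sia4, a polysialyltransferase, read 7.26, 8.97 and 9.05, a difference of 2.60 ± 0.21 (6.08-fold), above each other tissue. St8sia6 was higher by 1.54 ± 0.19, though kidney averaged 8.40 against 7.15. St3gal1, which sialylates core 1 O-glycans, was higher by 1.12 ± 0.17, and this fell to 0.81 without 9362, in which it read 10.26 against a median of 8.55. St6galnac2, the enzyme removed in the knockout animals, was lower by 1.77 ± 0.24 on the log2 scale, and testes averaged 12.30. Within its own line, with thyroid, brain and intestine as the other tissues and the replicate block, it differed by -0.31.

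Of 7 T cell genes 6 were higher than in each other tissue, against 5.61% of all genes. The median difference of the list was 3.94. Cd2, an adhesion receptor of T cells, read 7.98, 10.30 and 10.61 against at most 6.92 elsewhere, a difference of 4.80 ± 0.20. Il7r, the interleukin-7 receptor of naive and memory T cells, read 5.20, 8.15 and 8.80 against at most 4.95, a difference of 4.28 ± 0.20. Cd69, which keeps lymphocytes in the node, read 5.51, 7.99 and 8.45 against at most 4.92, a difference of 3.94 ± 0.20. In each of these genes 9094 was the lowest lymph node and still above every other array. Il2ra, the high-affinity interleukin-2 receptor chain, differed by 0.75 ± 0.09 and did not pass the limit of 1. Il7r, Il2ra, Il2rb and Il27ra are counted with the interleukin receptors too, and Ccr7 with the homing receptors. The T cell count is therefore not separate from those, and this list too was chosen with earlier results known.

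Lectin-like receptors of natural killer cells gave 5 of 18 higher and none lower, with a median of 0.49. Cd69, also on this list, led it, followed by Klrd1, the CD94 chain, which read 6.59, 8.39 and 8.86, a difference of 3.58 ± 0.20. Klra9 (2.17 ± 0.20) and Klra8 (1.44 ± 0.14) belong to the Ly49 family, whose members are close copies, so signal may be shared between their probe sets. In Klra9 and Klra8 the array of 9094 was not the lowest, at 8.32 and 5.99. Clec2d, the ligand of Klrb1 receptors, was higher by 1.34 ± 0.16. Cd48, the ligand of Cd2 and of the killer cell receptor Cd244, differed by 3.81 ± 0.19 with mammary gland next at 8.33.

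Of 26 lectins of macrophages and dendritic cells 9 were higher and none lower, with a median of 0.26. Cd209b, the SIGN-R1 receptor of sinus and marginal zone macrophages, read 8.26, 10.39 and 11.25, a difference of 4.92 ± 0.23 (adjusted p of 2.8e-25, limma). Mammary gland came next at 7.50 and its highest array, 8.85, passed the lymph node of 9094. Cd209d (2.72 ± 0.23), Cd209e (1.88 ± 0.22) and Cd209a (1.45 ± 0.19) were higher too. Their sequences are alike, and mammary gland averaged 8.69 for Cd209d and 8.14 for Cd209a, above the 8.36 and 7.58 of lymph node.

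Clec4n, dectin-2, which binds fungal mannans, was higher by 3.26 ± 0.19 and called above each tissue. Clec10a, the macrophage galactose lectin, was higher by 1.999 ± 0.21, and mammary gland averaged 10.65 against 8.98. The mannose receptor Mrc1 differed by 0.50 ± 0.17, Mgl2 by -0.13 ± 0.25 and Cd207, langerin, by -0.34 ± 0.11. For Mrc1 and Mgl2 9094 was the highest lymph node, at 9.02 and 8.75, and mammary gland averaged 10.17 and 9.59.

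Of 6 other macrophage and dendritic cell genes 4 were higher. Timd4, a receptor for phosphatidylserine on resident macrophages, read 6.20, 8.19 and 9.11, a difference of 4.01 ± 0.22, and Havcr2 (TIM-3) differed by 1.52 ± 0.12. Flt3 (1.06 ± 0.14) and Csf1r (1.02 ± 0.15), receptors of dendritic cell and macrophage growth factors, lay at the limit. Without 9362 they gave 0.969 and 0.996 and were not called, nor was Csf1r without 9099 (0.91) or 9093 (0.97). Adgre1, the F4/80 antigen, differed by -0.20 ± 0.15 and mammary gland averaged 7.67 against 5.80. Cd74, the invariant chain of MHC class II, read 11.31, 12.65 and 12.91, a difference of 2.90 ± 0.16, and Cd83 of mature dendritic and B cells differed by 3.06 ± 0.23 with brain next at 8.19.

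Of 28 interleukins 3 were higher, a share near the 11.3% of all genes, with a median of 0.02. Of 40 interleukin receptors 9 were higher and 1 lower, with a median of 0.21. Il16, a lymphocyte chemoattractant, read 7.35, 9.71 and 9.93, a difference of 2.69 ± 0.29, and 1 brain array reached 9.02. Il1a (1.22 ± 0.15) and Il7 (1.13 ± 0.11), the survival factor made by node stroma, were the others, and Il7 was not called at 0.99 without 9093.

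Among the 40 receptors 8 were above each other tissue, all of them among the 9 called higher, against 5.61% of all genes. Il22ra2, the soluble decoy receptor for interleukin-22, read 6.43, 8.32 and 9.28 against at most 5.51 in any other array, a difference of 4.61 ± 0.17 (adjusted p of 4.1e-30, limma). Only Glycam1 had a smaller p over the 909 genes. Il2rg, the common gamma chain, read 9.64, 11.80 and 12.18 against at most 8.74, a difference of 4.05 ± 0.17. Il21r, which pairs with it, differed by 3.91 ± 0.19, and Il7r is given above. The common gamma chain and 3 of its partners, Il7r, Il21r and Il2rb (1.88 ± 0.12), were thus above each tissue, while Il4ra (0.43 ± 0.09), Il9r (0.18 ± 0.10) and Il15ra (0.47 ± 0.10) did not pass the limit of 1.

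Il27ra (2.35 ± 0.13), Il18r1 (2.17 ± 0.22) and Il10ra (1.96 ± 0.15) were above each tissue, and Il17ra (1.46 ± 0.18) was above 6 of 7. The single receptor that was lower, Il17rd (-1.20 ± 0.15), an inhibitor of FGF signalling, read 3.99 to 4.55 in lymph node, under the 4.60 of the lowest other array. It was the only gene (0.11%) of the 909 in which all lymph nodes lay below every other array. Of 16 interferon and colony-stimulating factor genes 6 were higher and none lower. Csf2rb, the common beta chain for interleukin-3, interleukin-5 and GM-CSF, led with 4.15 ± 0.21, and its near-identical neighbour Csf2rb2 gave 3.63 ± 0.21. The interferon receptor chains Ifnar2 (1.505 ± 0.13) and Ifngr1 (1.22 ± 0.13) were higher as well.

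**Figure D5:**
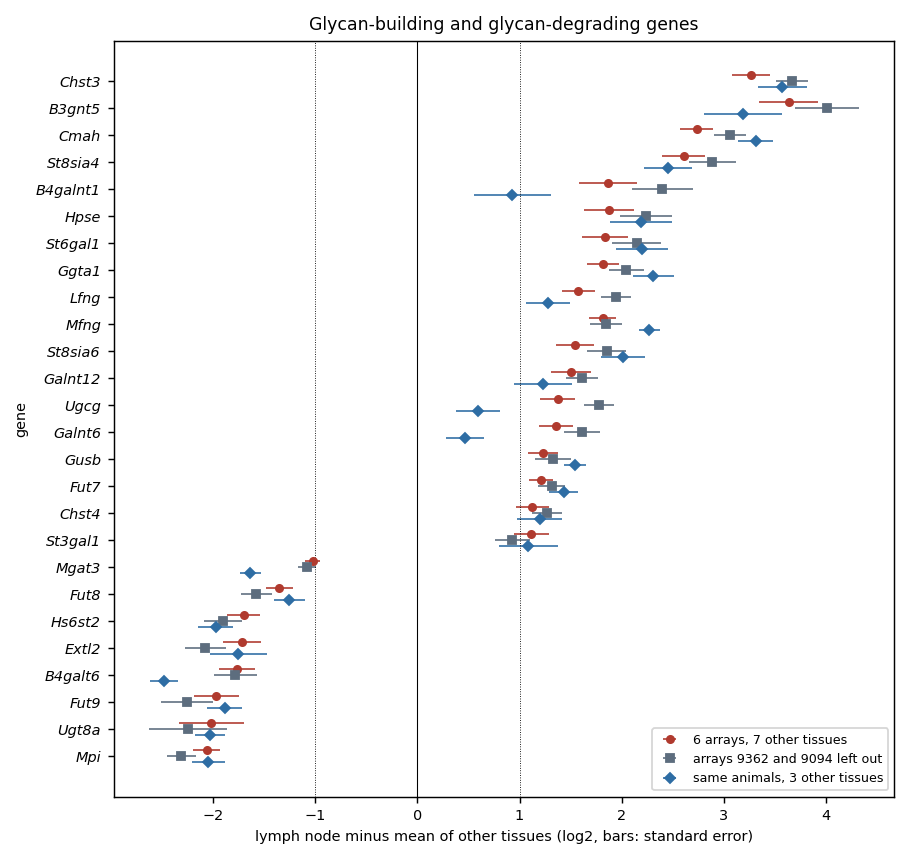
Difference between lymph node and the mean of the other tissues (log2, x axis, bars are SE) for 26 glycan-related genes called in either direction (y axis), from all arrays (red), without arrays 9362 and 9094 (grey) and within the St6galnac2 line with the replicate block (blue). B4galnt1, Ugcg and Galnt6 lie above 1 in the first and at 0.93, 0.59 and 0.47 within the line; Fut9, which chose arrays, is shown without weight.

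Enzymes of the other glycan pathways were called in both directions, and the counts below are to be read against the 11.3% higher and 8.91% lower of all genes. B3gnt5, which starts the lacto-series glycolipids, read 6.19, 8.42 and 8.60, a difference of 3.63 ± 0.28, above each tissue. Ggta1, which makes the alpha-galactosyl epitope, was higher by 1.82 ± 0.16, with labelled thymus next at 7.59 against 7.81. The ganglioside enzymes B4galnt1 (1.87 ± 0.28) and Ugcg (1.37 ± 0.17) were higher than the mean, but intestine averaged 9.53 and 9.57, above the 8.72 and 8.88 of lymph node. Within the St6galnac2 line with the replicate block they differed by 0.93 and 0.59 and were not called. B4galnt1 was removed in part of the animals of the other line, so the comparison with those tissues holds knockout arrays for this gene.

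The polypeptide GalNAc transferases that start O-glycans gave 2 higher, 1 lower and 16 not called, near the shares of all genes. Galnt12 was higher by 1.505 ± 0.20 and Galnt6 by 1.36 ± 0.17, each with intestine above lymph node, at 8.06 and 10.05. Fut8, the core fucosyltransferase of N-glycans, was lower (-1.35 ± 0.13), as was Mgat3, the bisecting enzyme (-1.02 ± 0.07, not called at -0.997 without 9100), and none of the 15 N-glycan genes was higher. Of 10 fucosyltransferases Fut7 alone was higher, and Fut9 (-1.97 ± 0.22) is a description only because it chose arrays of brain and intestine. None of 8 galectins was higher, and Lgals2 was lower (-1.51 ± 0.10), intestine averaging 12.32.

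Heparan sulfate genes gave 1 higher and 2 lower of 24. Hpse, heparanase, which cuts the chain, was higher by 1.88 ± 0.24, and the lower genes were the chain enzymes Extl2 (-1.72 ± 0.18) and Hs6st2 (-1.70 ± 0.16). Of 18 chondroitin sulfate genes Chst3 alone was higher, and of 24 lysosomal glycan-degrading enzymes Gusb alone (1.23 ± 0.15). Serglycin (Srgn), the granule proteoglycan of blood cells, was higher by 2.24 ± 0.16, while the matrix proteoglycans Vcan (-1.29 ± 0.18) and Agrn (-1.10 ± 0.20) were lower. Among 12 Notch genes 3 were higher: Notch2 (2.36 ± 0.24, above each tissue) and the Fringe glycosyltransferases Mfng (1.81 ± 0.13) and Lfng (1.58 ± 0.16).

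The genes lower in lymph node were led by Igfbp6, which binds insulin-like growth factor 2. It read 5.24, 6.11 and 9.86 at the lowest, median and highest lymph node, a difference of -2.45 ± 0.30 (adjusted p of 4.2e-10, limma). Animal 9094 was the highest, and without both arrays that stood apart the difference was -3.19. Igf2 itself read 6.44, 6.84 and 7.96, a difference of -2.004 ± 0.34, and averaged 11.73 in labelled thymus. Chga, chromogranin A of endocrine cells, differed by -2.08 ± 0.45 and averaged 10.87 ± 3.23 (SD, n = 6) in thyroid. Ugt8a, the galactosylceramide synthase of myelin, differed by -2.02 ± 0.32, brain averaging 9.24, and the heparan sulfate proteoglycan Gpc4 by -2.02 ± 0.20. Ugt1a6b, a detoxifying enzyme, differed by -2.23 ± 0.29 but by -0.72 within the line.

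Bsg and Mpi were lower against most tissues taken singly. Bsg, basigin, a widely made partner of lactate transporters, read 10.03, 10.40 and 11.58 in lymph node, a difference of -1.52 ± 0.10 (adjusted p of 4.2e-19, limma). It was the only gene (0.11%) called lower than in each of the 7 tissues, whose means were 11.63 at the lowest. That count of 1 gene became 0 without 9099, 9093 or 9361, 2 without 9362 and 5 without 9094. The 5 lymph nodes other than 9094 read at most 10.96, below every other array, the lowest of which was 11.46. Mpi, the phosphomannose isomerase that links glycolysis to mannose supply, read 6.67, 7.01 and 7.96, a difference of -2.06 ± 0.13, and was called lower than in 6 of 7 tissues, mammary gland excepted.

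None of the 42 FGF, VEGF, PDGF and EGF genes was higher and 8 were lower, with a median of -0.44. They were Fgfr2, Fgf1, Fgf9, Fgf12, Fgfr3, Pdgfc, Hbegf and Pdgfa, from -1.74 to -1.09. Of 28 TGF-beta and BMP genes 6 were lower and 2 higher. The lower ones were the receptors Bmpr1a (-1.93 ± 0.18) and Acvr1 (-1.59 ± 0.18), the ligands Bmp4, Bmp7 and Tgfb3 and the protease Bmp1. The higher ones were Tgfb1 (1.15 ± 0.15), the form made by immune cells, and the receptor Tgfbr2 (1.59 ± 0.17), of which a further probe set gave 0.47.

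Genes of connective tissue and fat were called in both directions, 2 higher, 3 lower and 10 not called, with a median of 0.02. Angptl4, an inhibitor of lipoprotein lipase, was higher by 1.43 ± 0.29, with 9094 the highest at 11.31. The other higher gene, Cxcl12, is counted with the homing chemokines too. Lum was lower by 1.07 ± 0.31 on the log2 scale, and by 1.96 without both arrays that stood apart. Its call was lost when 9099, 9093, 9361 or 9100 was left out, at -0.95, -0.83, -0.85 and -0.92, and with wild-type arrays alone, at -0.06. Both arrays that stood apart are wild type. Col14a1, a fibril-associated collagen, differed by -1.17 ± 0.22.

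The 3 tissues nearest to lymph node by the median size of the difference were mammary gland (0.353), thyroid (0.364) and labelled thymus (0.375), which lay close together. Brain was farthest (0.669). The lymph node mean used here includes 9094, which correlated at 0.488 with mammary gland and 0.345 with thyroid. The other 5 arrays gave -0.053 to 0.071 and -0.141 to -0.074. The order of tissues without 9094 was not tested. Against labelled thymus 96 genes (10.6%) were higher and 108 (11.9%) lower. After Glycam1, the largest differences upward were Cd209b (5.24), Il22ra2 (4.86), Fcrla (4.82), Ccl21a (4.55) and Ccr7 (4.54). Downward they were Angpt1 (-6.18), an endothelial growth factor, Fgf12 (-5.34), Pgm5 (-4.83), the platelet chemokine Ppbp (-4.78) and Igf2 (-4.76). Of the 7 T cell genes, 6 were higher in lymph node than in labelled thymus and the list median was 3.57.

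Against mammary gland 86 genes (9.46%) were higher and 121 (13.3%) lower. The largest upward after Glycam1 were Ccl21a (5.71), Fcrla (5.55), Ccl21c (5.41) and Cxcl13 (5.31). The largest downward were Igfbp6 (-4.28), Lum (-4.11) and Mgl2 (-3.09), and 10 of 15 connective tissue and fat genes were lower. In these 3 genes 9094 read 9.86, 9.32 and 8.75, above the other 5 lymph nodes. Whether adjoining tissue entered that sample was not tested.

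Against thyroid, from the same animals, 116 genes (12.8%) were higher and 91 (10%) lower. Those with large differences upward included Glycam1 (7.58), Fcrla (5.35) and Ccr7 (4.997). Chga (-5.47), Angptl1 (-4.54) and Igfbp6 (-4.05) were the largest downward. The difference was smaller for Ccl21a (2.79 on the log2 scale) than for Ccr7, as thyroid averaged 9.48 for the chemokine and its arrays reached 10.21.

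Between St6galnac2 knockout and wild-type lymph nodes, with a term for sex, no gene of 909 was called (0%) by limma at an adjusted p under 0.05. The smallest adjusted p was 0.801, and 31 genes had an unadjusted p under 0.05. St6galnac2 itself read 6.84, 6.53 and 6.18 in the wild types 9362, 9099 and 9094 and 6.66, 6.19 and 6.17 in the knockouts 9093, 9361 and 9100. The genotypes overlapped, with a difference of -0.17 ± 0.26. Where the probe set lies relative to the deleted part is not given in the sources used here, so its level does not check the labels. The smallest p was that of Mcoln3, an ion channel of endosomes, at 6.42 in knockouts and 5.05 in wild types, followed by Il27ra, higher by 0.95 in knockouts, neither past the correction. Both arrays that stood apart were wild type, so this comparison carries them on one side.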

How the data were processed

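RNA of single mouse tissues was hybridised to Affymetrix arrays, 1 array per animal and tissue except animal 9099, whose brain had 2, of which 1 was dropped. The deposited values are on the log2 scale and were made with RMA, per the submitters' processing notes; whether all 60 arrays were normalized together is not given in the sources used here. Array medians lay between 5.30 and 5.76. Arrays give no counts, so the number of arrays limits the precision.

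Of 1246 probe sets, 963 carried a gene symbol. They stood for 909 genes, each by its probe set of highest mean, and 283 without a symbol were tested only in an alternative. Of these genes 48 had several probe sets. Probe sets marked as shared between sequences numbered 217.

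The fit used limma 3.58.1 in R 4.3.3 with 1 mean per tissue, empirical Bayes moderation and p-values adjusted by Benjamini-Hochberg over the named probe sets. Calls needed a log2 difference of 1 or more and an adjusted p below 0.05; for the genotypes the p alone decided. The scripts were tested on simulated data. Promoters came from RefSeq on GRCm38.p6, in which 708 of the 909 genes matched.

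Same-numbered arrays of different tissues come from the same animal. Their deviations from the mean of their tissue, line and genotype correlated with a median of 0.009 over 16 pairs. The median was -0.007 over 80 pairs of different animals. Each such group held 2 or 3 arrays, which limits what these values can show. Nothing says that the animals were of separate litters, so p-values measure the spread between these animals. The members and lists were chosen with earlier results of these data known. Genes named are the 4 markers, the 30 largest differences upward and 15 downward among called genes, genes above or below each tissue, and members of the 37 lists, of which 36 had a measured gene and the tumour necrosis factor family had none; B3gnt6, Gne, St3gal4, Prol1, Cd48, Mcoln3 and Il5ra were singled out after their values were seen. One gene that the rule names is not reported here, though counts over all genes include it; it is left out of its list.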

Additional observations from a re-analysis of the deposited data

Results flagged for a closer look

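In 62 of the named genes a single lymph node array lay so far from the other 5 that its gap to the nearest of them, divided by the range of the 6, passed Dixon's critical value for 6 samples. Chance gives such a gap in about 1 in 20 groups. Over all 909 genes 165 (18.2%) had one, in 109 of them by wild-type animal 9094.

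Animal 9094 was the lowest of the 6 in 49 named genes. Among adhesion and selectin ligand genes its log2 values were Icam1 6.92, Icam2 8.11, Vcam1 6.92, Pecam1 8.63 and Chst3 6.71. Among chemokines and their receptors its log2 values were Ccl5 9.91, Ccl12 5.75, Ccl21a 10.94, Ccl21c 10.91, Cxcl12 8.96, Cxcl13 9.69, Ccr7 6.24, Ccr9 4.7, Cxcr3 5.59 and Cxcr5 6.37. Among lymphocyte surface genes its log2 values were Cd2 7.98, Cd22 8.74, Cd48 9.39, Cd72 8.02, Fcer2a 6.45, Fcrla 6.73, Siglecg 6.04 and Klrd1 6.59. Siglech read 6.32, Clec4n 5.92 and Havcr2 4.25, genes also of dendritic cells or macrophages. Among cytokines and their receptors its log2 values were Csf2rb 7.47, Csf2rb2 6.19, Flt3 6.37, Ifnar2 7.22, Ifngr1 9.24, Igfbp3 7.39, Il16 7.35, Il1a 4.44, Il21r 5.57, Il7r 5.2 and Tgfbr2 9.73. Among glycan genes its log2 values were B3gnt5 6.19, B4galnt1 6.65, Cmah 6.86, Galnt6 6.7, Ggta1 6.68, Hpse 5.44, Lfng 5.82, Srgn 10.32, St6gal1 8.16, St8sia4 7.26, St8sia6 5.68 and Ugcg 7.11. It was the highest in Acvr1 (6.78), Lum (9.32), Podxl2 (6.4) and Ugt1a6b (8.75). Its genes of connective tissue and fat were high at the same time, and their part in these values was not tested.

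Wild-type animal 9362 was the highest in B3gnt6 (9.43), Bmp7 (5.8), Fut9 (4.65), Gne (9.69), Prol1 (11.08), Sftpd (7.49), St3gal1 (10.26) and St3gal4 (9.08). Wild-type animal 9099 was the highest in Madcam1, at 7.34.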

How the results depend on the processing

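Under 16 other settings and 1 chosen after seeing the data (arrays 9362 and 9094 both left out), the counts of genes higher and lower against the mean of the other tissues, mammary gland and thyroid stayed within 1.5 times, where the alternative could be run. Against labelled thymus the lower genes numbered 57 instead of 108 with wild-type arrays only, where labelled thymus has 1 array, and 53 were shared. Genes above each other tissue numbered 80 instead of 51 in the St6galnac2 line with the replicate block, where only 3 other tissues are compared, and all 51 were among them. Genes below each other tissue (1, Bsg) numbered 13 in that paired fit, 0 with wild-type arrays only and with 1 mean per line, genotype and tissue, 3 with arrays centred on their median, 2 after a further quantile normalization, 6 without both arrays, and 0 to 5 when 1 lymph node was left out. With the animal as a random replicate block (correlation 0.073) the counts against all tissues were 103 higher and 79 lower, and no count of genes moved by over 1.5 times. No paired analysis was possible for knockout against wild type because they are different animals, and 0 genes were called there under every alternative run.

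Of 3494 values for 211 named results, 3409 kept their direction and side of the threshold, 66 lost their call, 3 gained one and 16 changed sign. The changes of sign were Adgre1 (0.13), Chst2 (-0.01), Galntl5 (0.18) and Selp (0.029) within the line with the replicate block, St3gal4 (0.078) with wild-type arrays only and Fcrlb (-0.013) with centred arrays. B3gnt6 (-0.30), Gne (-0.37), Prol1 (-0.25) and Sftpd (-0.002) changed sign without 9362, and these gave -0.35, -0.30, -0.76 and -0.007 without both arrays. Gne gave -0.019 with the dropped arrays kept and -0.022 with centred arrays. Over the lymph nodes left out singly the values reached 0.805 for B3gnt6, 0.238 for Gne and 0.509 for Sftpd. The cause was not tested. Genes near the lower end of the scale, where few probes stand above background, are limited in what difference they can show.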

Other observations

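The 283 probe sets without a gene symbol held 24 that were higher and 8 that were lower in lymph node than the mean of the other tissues by the same limma call, and they are not named here. The array of wild-type animal 9362 held the highest of the 6 lymph node values in 299 of 909 genes and that of 9094 in 313, against 57 to 92 in the other 4 arrays. Prol1, which read 11.08 in 9362, was also above 8 in 4 of the 7 mammary gland arrays.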
